A study of Mus musculus with 12 samples.

Results

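The FOXO family paralogues described here were Foxo1, Foxo3 and Foxo4, 3 of the 13283 genes in the deposited expression table, taken by gene symbol. The RNA came from mouse cytotoxic T lymphocytes (CTL), effector CD8+ T cells grown by stimulating the T cell receptor and CD28 with antibodies for 48 h followed by culture with the cytokines IL-12 at 2 ng/mL and IL-2 at 20 ng/mL. There were 12 libraries in 4 groups of 3 replicates. WT CTL were GzmB cre+, and FOXO1-GFP KO CTL were FOXO1-GFPfl/fl Gzmb cre+, so the Cre recombinase, driven by the granzyme B promoter, was present in both genotypes. From day 6 each genotype was kept for 24 h with vehicle (DMSO; WT and FOXO1-GFP KO) or with IC87114 at 10 µM, which blocks p110δ, a catalytic subunit of PI3K (PI3Kdi; WT+PI3Kdi and FOXO1-GFP KO+PI3Kdi). Mice were female and 11 to 27 weeks old, living CD8+ cells were sorted, and the FOXO1-GFP KO cells were also sorted as GFP negative. WT cells had no such gate, so the gate and the deletion cannot be told apart. Foxo6, the other member of the family, was not among the genes of the table.

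FOXO proteins are transcription factors of the forkhead family that bind a shared core motif in DNA. PI3K, through the kinase AKT, phosphorylates them, and phosphorylated FOXO is held by 14-3-3 proteins and leaves the nucleus, so inhibiting PI3K returns FOXO to the nucleus. In T cells FOXO1 maintains genes of quiescence, homing and memory, and FOXO3 is linked to cell death and survival. Foxo1, Foxo3 and Foxo4 can share targets, and the comparison between genotypes asks whether Foxo3 or Foxo4 mRNA was higher where Foxo1 was lost. The measurement was of mRNA, so the position and phosphorylation of the proteins were not seen.

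The stretch of coding sequence in which the paralogues were most alike is shown because it encodes part of the forkhead domain, including the helix that reads DNA, and because near-identical sequence could let reads of one paralogue count for another. Each sequence is 90 bases of coding strand, 5′ to 3′, from GENCODE M21 transcripts (GRCm38), and capitals mark the positions that differ among the 3 genes.
Foxo1: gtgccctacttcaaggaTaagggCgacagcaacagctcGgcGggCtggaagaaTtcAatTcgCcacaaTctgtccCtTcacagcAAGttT
Foxo3: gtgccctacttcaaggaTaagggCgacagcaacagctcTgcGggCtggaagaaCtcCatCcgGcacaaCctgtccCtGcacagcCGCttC
Foxo4: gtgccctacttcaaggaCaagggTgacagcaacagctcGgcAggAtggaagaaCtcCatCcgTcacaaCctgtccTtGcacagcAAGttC
All 3 genes had the same base at 74 of the 90 positions, and the base of Foxo1 was shared by Foxo3 at 79 and by Foxo4 at 78. An intron split the window at the same place in each gene, after the first 51 bases. In Foxo1 (plus strand) these 51 bases were chr3:52269372-52269422 in exon 1 and the other 39 were chr3:52345039-52345077 in exon 2, the exon that Cre removes. In Foxo3 (minus strand) the parts were chr10:42274816-42274866 and chr10:42197863-42197901, in exons 2 and 3 of Foxo3-203. In Foxo4 (plus strand) they were chrX:101255223-101255273 and chrX:101258177-101258215, in exons 1 and 2 of Foxo4-201. Over whole coding sequences the identity was 67.4% between Foxo1 and Foxo3, 67.3% between Foxo1 and Foxo4 and 69% between Foxo3 and Foxo4. The longest identical run of any pair was 38 bases (Foxo1 and Foxo3), and 0 of the 75-base windows of any paralogue occurred in another, 75 bases being the length of a read. A read of full length that matches 1 of the 3 genes exactly therefore matches neither of the others.

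Foxo1 (ENSMUSG00000044167) spans chr3:52268336-52353221, Foxo3 (ENSMUSG00000048756) spans chr10:42181841-42276755, and Foxo4 (ENSMUSG00000042903) spans chrX:101254528-101260873. In the engineered Foxo1 allele, exon 2 carries the GFP sequence and is flanked by LoxP sites. The annotated exon 2 has 1352 bases, 15.6% of the Foxo1 transcript and 68.3% of its coding bases, and the noncoding exon 3 has 71.9% of the transcript. The deposited values count whole genes, so reads from exons 1 and 3 that remain after deletion are included in what is called Foxo1 here. An antisense gene model, Gm20402, shares 6.13% of the 75-base windows of Foxo1, in exon 1, and the strand used in counting was not given in the sources used here.

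Depth, recovered from the whole-read steps of short genes, ran from 12.9 to 48 M reads a library (M for mega). Foxo1 rested on an estimated 771 to 2400 reads in each WT or WT+PI3Kdi library and 113 to 306 in each FOXO1-GFP KO or FOXO1-GFP KO+PI3Kdi library. The estimates were 265 to 923 reads for Foxo3 and 143 to 567 for Foxo4, so counting error alone was at most 8.36% of a Foxo3 or Foxo4 value. CD8 T cell identity was clear in every library, with Cd8a at 139.05 FPKM or more and Gzmb, which encodes granzyme B, at 7317.02 FPKM or more (FPKM, fragments per kilobase of exon, scaled to the size of the library). Of 12 listed B cell markers 3 were in the table, and their summed level was 11.4 to 19.5 FPKM in the WT genotype against 4.31 to 6.88 FPKM in the FOXO1-GFP KO genotype. All 3 had lower means in FOXO1-GFP KO. Ighm, an immunoglobulin heavy chain gene, made up most of the sum, and Igkc, a light chain gene, was at 1.38, 2.84 and 2.2 FPKM in WT+PI3Kdi and listed at 0 in all 3 FOXO1-GFP KO+PI3Kdi libraries (log2 change -4.43, limma adjusted p = 0.00249). Cd79b, which encodes part of the B cell receptor, was at 3 to 4.29 FPKM in WT and 1.96 to 2.88 FPKM in FOXO1-GFP KO. These were apart, as were 6.79% of all genes in that direction, but not called. With PI3Kdi Cd79b overlapped, at 2.86 to 4.49 FPKM in WT and 2.67 to 3.21 FPKM in FOXO1-GFP KO. Cd79a and Ms4a1, which also mark B cells, were not listed. The part of these marker differences in the results was not tested. The 3 CD4 T cell and the 6 myeloid markers in the table had summed ranges that overlapped between genotypes in both conditions. Most of the CD4 sum was Zbtb7b, which overlapped, as did Cd40lg. Cd4 itself was at 0.83 to 0.95 FPKM in WT+PI3Kdi and 0.12 to 0.51 FPKM in FOXO1-GFP KO+PI3Kdi. It was apart downwards, as were 7.9% of all genes, and was not called. Without PI3Kdi Cd4 was at 0.44 to 0.57 FPKM in WT and 0.09 to 0.44 FPKM in FOXO1-GFP KO. The part of Cd4 in the results was not tested. The sum of the 2 NK cell markers, almost all of it Eomes, was 84 to 92.3 FPKM in WT and 98.6 to 114 FPKM in FOXO1-GFP KO. It was thus apart without PI3Kdi, where 3.54% of all genes were apart in that direction. The sum overlapped with PI3Kdi (86 to 114 and 93.4 to 107 FPKM). Klrb1c, the other NK cell marker, was at 2.11 to 2.64 FPKM in WT+PI3Kdi and 3.31 to 4.81 FPKM in FOXO1-GFP KO+PI3Kdi. It was apart upwards, as were 6.85% of all genes, and was not called. Without PI3Kdi Klrb1c overlapped, at 1.94 to 2.67 FPKM in WT and 2.47 to 3.72 FPKM in FOXO1-GFP KO. The part of Klrb1c in the results was not tested.

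Foxo1 was examined first because it checks the genotype labels. It stood at 9.99, 5.77 and 5.79 FPKM in WT replicates 1 to 3 and at 0.58, 1.08 and 1.44 FPKM in FOXO1-GFP KO. With PI3Kdi it was at 10.46, 5.84 and 7.5 FPKM in WT and at 0.61, 1.06 and 1.75 FPKM in FOXO1-GFP KO. Every FOXO1-GFP KO library was below every WT library, and the mean of FOXO1-GFP KO was 14.4% of WT both without and with PI3Kdi. Foxo1 fell by 2.71 on the log2 scale without PI3Kdi (95% interval -3.57 to -1.85, limma adjusted p = 0.0148) and by 2.76 with PI3Kdi (-3.62 to -1.90, adjusted p = 0.00478). Foxo1 was thus 1 of the 3 paralogues called in each genotype comparison, where 0.331% of all genes were called without and 1.45% with PI3Kdi (called: adjusted p under 0.05 and a change over 1.5-fold). With libraries of the same replicate number treated as pairs within a genotype (the replicate block), which called 0.233% and 1.18% of all genes, Foxo1 was called again (adjusted p = 0.00454 and 0.00188) and Foxo3 and Foxo4 were not. The call with PI3Kdi held under all 22 alternatives tried. The call without PI3Kdi was lost when WT replicate 1 (adjusted p = 0.074), WT replicate 2 (0.0505), FOXO1-GFP KO replicate 1 (0.0571) or FOXO1-GFP KO replicate 2 (0.076) was left out, with a log2 change of -2.84 to -2.38 in these 4 fits. Less Foxo1 mRNA per cell and fewer cells that still transcribe the gene cannot be told apart in these bulk samples.

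**Figure D1:**
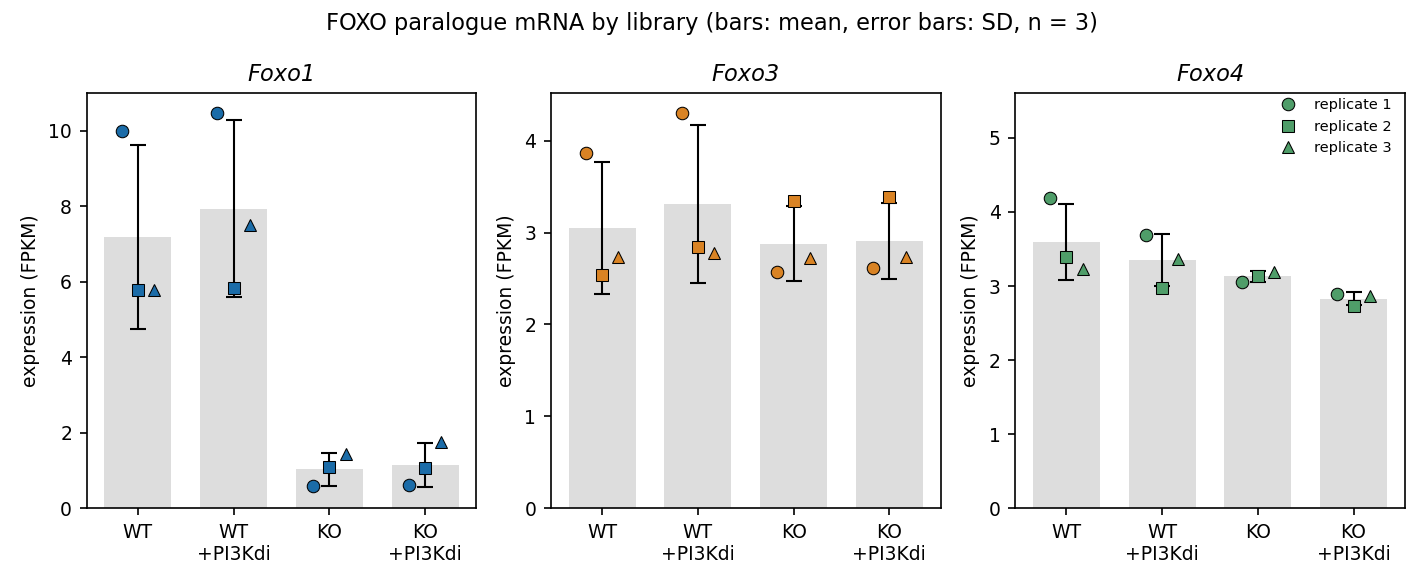
Expression of Foxo1, Foxo3 and Foxo4 (FPKM, one panel each with its own axis from 0) in the 3 libraries of each group; KO is FOXO1-GFP KO, grey bars are means and error bars SD (n = 3). Foxo1 was at or below 1.75 FPKM in all FOXO1-GFP KO libraries and at or above 5.77 FPKM in all WT libraries, while Foxo3 overlapped between genotypes and Foxo4 was 2.73 to 3.19 FPKM in FOXO1-GFP KO against 2.98 to 4.19 FPKM in WT.

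Foxo3 encodes FOXO3, which PI3K and AKT restrain as they do FOXO1. Its level was 3.87, 2.54 and 2.73 FPKM in WT and 2.57, 3.34 and 2.72 FPKM in FOXO1-GFP KO. With PI3Kdi the values were 4.3, 2.84 and 2.78 FPKM in WT and 2.61, 3.39 and 2.74 FPKM in FOXO1-GFP KO. The genotypes overlapped under both conditions: replicate 1 was the high library in WT and replicate 2 the high library in FOXO1-GFP KO. Foxo3 did not pass the test without PI3Kdi (log2 change -0.07, 95% interval -0.53 to 0.40, limma adjusted p = 1) or with PI3Kdi (-0.16, -0.62 to 0.31, adjusted p = 0.827). The upper ends of these intervals are 1.32-fold and 1.24-fold on the FPKM + 0.1 scale. Without WT replicate 1 the first difference became 0.11, and without WT+PI3Kdi replicate 1 the second became 0.04. Neither was called.

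Foxo4, on the X chromosome, encodes the shortest of the 3 coding sequences. It was at 4.19, 3.39 and 3.23 FPKM in WT and at 3.05, 3.14 and 3.19 FPKM in FOXO1-GFP KO. With PI3Kdi it was at 3.69, 2.98 and 3.37 FPKM in WT and at 2.89, 2.73 and 2.86 FPKM in FOXO1-GFP KO. In both conditions each FOXO1-GFP KO library was below each WT library, by as little as 0.04 FPKM without PI3Kdi. Such a separation downwards was found for 6.79% of all genes without and 7.9% with PI3Kdi, and the opposite one, FOXO1-GFP KO above WT, for 3.54% and 6.85%. Foxo4 was not called in either comparison. The log2 change was -0.19 without PI3Kdi (95% interval -0.48 to 0.10, limma adjusted p = 1) and -0.23 with PI3Kdi (-0.52 to 0.06, adjusted p = 0.639), with upper ends of 1.07-fold and 1.04-fold. Leaving out any 1 library kept both values below 0 (-0.26 to -0.08 and -0.31 to -0.16).

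**Figure D2:**
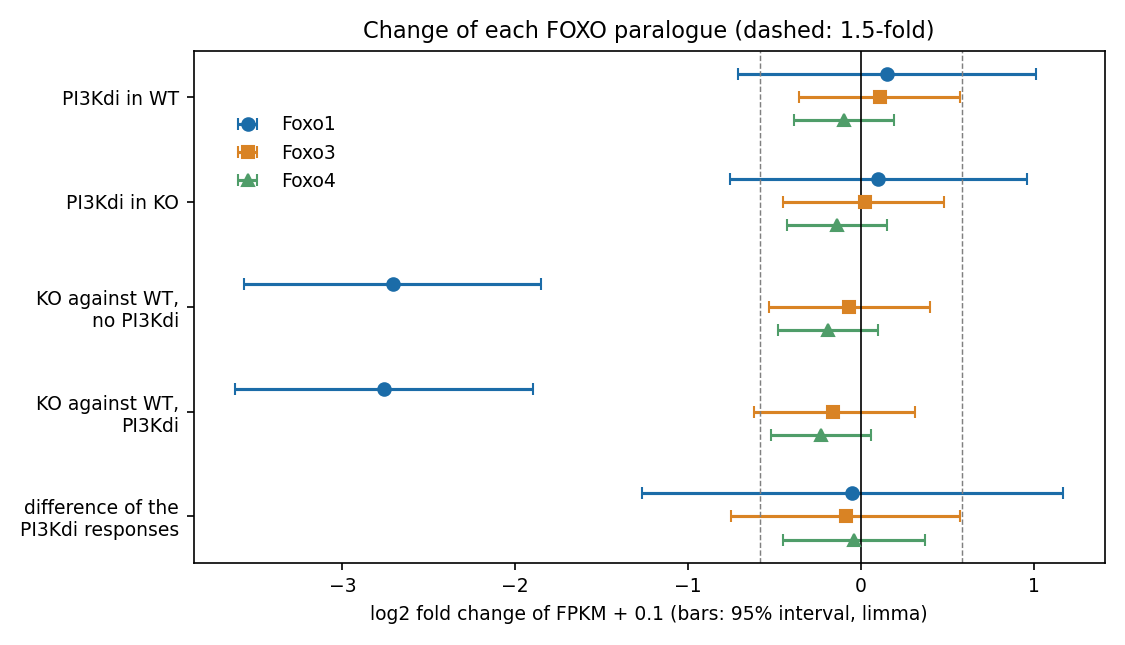
Log2 fold changes of FPKM + 0.1 for each paralogue in the 5 comparisons, with 95% intervals from limma over 12 libraries; KO is FOXO1-GFP KO and dashed lines mark 1.5-fold in either direction. Foxo1 lies near -2.71 and -2.76 between genotypes, and the Foxo3 and Foxo4 intervals include 0 in all comparisons and have upper ends below 0.585, the log2 of 1.5. The lower ends for Foxo3 pass 1.5-fold between genotypes with PI3Kdi (-0.62) and in the difference of the responses (-0.75).

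Because FPKM is scaled by gene length, the paralogues could be set against each other. The length is that of all annotated exons of a gene, 7571 bases for Foxo3, whereas the annotated Foxo3 transcripts have 514 to 6848 bases. Which transcripts were present was not seen, so levels and sums across the genes depend on this scaling. In WT the order of mean levels was Foxo1 (7.18 ± 2.43 FPKM, SD, n = 3), Foxo4 (3.6 ± 0.514) and Foxo3 (3.05 ± 0.719). Foxo1 exceeded both others in 6 of 6 libraries of the WT genotype. In FOXO1-GFP KO the order was Foxo4 (3.13 ± 0.0709 FPKM), Foxo3 (2.88 ± 0.408) and Foxo1 (1.03 ± 0.432), with Foxo1 below both others in 6 of 6 libraries of that genotype. Foxo3 and Foxo4, neighbours in the order, overlapped in all 4 groups, and Foxo4 was the higher in 9 of 12 libraries. By mean level, WT Foxo1 was above 57.5% of all genes in the table and FOXO1-GFP KO Foxo1 above 22.8%, whereas Foxo3 (39.3% and 38.5%) and Foxo4 (42.6% and 40.2%) kept nearly the same rank.

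The summed level of Foxo3 and Foxo4 was the direct measure of whether paralogue mRNA made up for lost Foxo1 mRNA. It was 8.06, 5.93 and 5.96 FPKM in WT and 5.62, 6.48 and 5.91 FPKM in FOXO1-GFP KO, with overlapping groups. With PI3Kdi it was 7.99, 5.82 and 6.15 FPKM in WT and 5.5, 6.12 and 5.6 FPKM in FOXO1-GFP KO, again overlapping. The differences of the means, FOXO1-GFP KO minus WT, were -0.647 FPKM (exact permutation p = 0.5, two-sided) and -0.913 FPKM (exact permutation p = 0.2). With 3 against 3 libraries the smallest p such a test can give is 0.1. Without WT replicate 1 the first difference was 0.0583 FPKM, and without WT+PI3Kdi replicate 1 the second was -0.245 FPKM. Over the same comparisons mean Foxo1 fell by 6.15 and 6.79 FPKM, and the Foxo3 and Foxo4 sum would have had to reach 1.92 and 2.02 times its WT level to equal that. At the upper ends of their separate intervals, Foxo3 and Foxo4 together would have risen by 1.25 FPKM without and 0.936 FPKM with PI3Kdi, which is 20.4% and 13.8% of the Foxo1 loss. The first share was 40.2% without WT replicate 1 and 32% without FOXO1-GFP KO replicate 1, and the second was 28.4% without WT+PI3Kdi replicate 1 and 22.6% without FOXO1-GFP KO+PI3Kdi replicate 1.

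The sum of all 3 paralogues was 18.05, 11.7 and 11.75 FPKM in WT and 6.2, 7.56 and 7.35 FPKM in FOXO1-GFP KO. With PI3Kdi it was 18.45, 11.66 and 13.65 FPKM in WT and 6.11, 7.18 and 7.35 FPKM in FOXO1-GFP KO. The genotypes did not overlap, and the mean total in FOXO1-GFP KO was 50.9% of WT without and 47.2% with PI3Kdi (exact permutation p = 0.1 for each, the smallest possible). Foxo1 supplied 51.3 ± 3.49% of the total in WT and 14.4 ± 5.12% in FOXO1-GFP KO. Foxo3 made up 22.1 ± 0.967% of the WT total and 40.9 ± 3.62% of the FOXO1-GFP KO total, and Foxo4 26.6 ± 2.99% and 44.7 ± 3.99% (SD, n = 3), although neither gene had a higher mean level there.

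**Figure D3:**
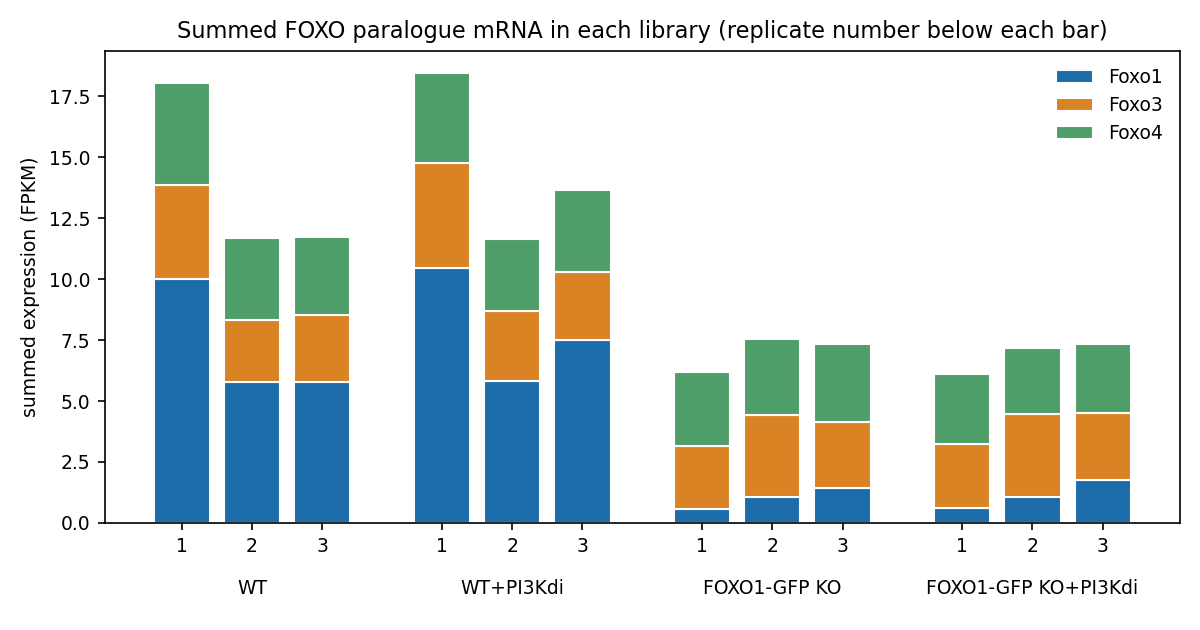
Stacked FPKM of Foxo1, Foxo3 and Foxo4 in each of the 12 libraries, with the replicate number under each bar. Totals were 11.66 to 18.45 FPKM in the WT genotype and 6.11 to 7.56 FPKM in the FOXO1-GFP KO genotype, and the mean Foxo3 and Foxo4 segments were no taller where the Foxo1 segment was short.

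Whether blocking p110δ changed FOXO mRNA itself was asked within each genotype. Replicates bearing the same number within a genotype varied together, so each PI3Kdi library was also read against its vehicle partner. Foxo1 differed from its partner by 0.47, 0.07 and 1.71 FPKM in WT and by 0.03, -0.02 and 0.31 FPKM in FOXO1-GFP KO. Foxo3 was 0.43, 0.3 and 0.05 FPKM higher in WT+PI3Kdi and 0.04, 0.05 and 0.02 FPKM higher in FOXO1-GFP KO+PI3Kdi. Foxo4 differed by -0.5, -0.41 and 0.14 FPKM in WT and by -0.16, -0.41 and -0.33 FPKM in FOXO1-GFP KO. Foxo3 thus lay above its partner in each of the 6 pairs, and Foxo4 below its partner in all but WT replicate 3, each time by at most 0.5 FPKM. The Foxo3 differences in FOXO1-GFP KO were smaller than the counting error of the values, 3.48 to 6.14%. How many of all genes kept 1 direction over the pairs was not counted, so these directions are no result about the paralogues. None of the 3 paralogues was called in WT (background 0.0979% of all genes) or in FOXO1-GFP KO (0.0452%), and their log2 changes ran from -0.10 to 0.15 and from -0.14 to 0.10. Without the block the Foxo1 intervals were wide, -0.71 to 1.01 in WT and -0.76 to 0.96 in FOXO1-GFP KO, and included a 1.5-fold change in either direction. With the replicate block within genotype, which called 2.57% and 2.79% of all genes, the 95% intervals in WT were -0.19 to 0.49 for Foxo1, -0.09 to 0.31 for Foxo3 and -0.26 to 0.06 for Foxo4. Those in FOXO1-GFP KO were -0.24 to 0.44, -0.18 to 0.21 and -0.30 to 0.02. No difference of the PI3Kdi response between genotypes was called for Foxo1 (log2 difference -0.05, limma 95% interval -1.27 to 1.17), Foxo3 (-0.09, -0.75 to 0.57) or Foxo4 (-0.04, -0.45 to 0.37). In that comparison 0% of all genes were called by limma (0 genes, with 200 at an unadjusted p under 0.05), and 0.0226% with the block.

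The high libraries were not particular to the FOXO genes. WT replicate 1 and WT+PI3Kdi replicate 1, the highest for all 3 paralogues in their groups, had the lowest FPKM summed over all genes (304832 and 310666, against 327088 to 380132 in the other libraries). FOXO1-GFP KO replicate 2, the highest for Foxo3 in its group, had the lowest sum of the FOXO1-GFP KO genotype, 327088. The forkhead gene Foxk1, at 24.91 and 28.32 FPKM in the replicate 1 libraries of the WT genotype and 12.92 to 16.22 FPKM in its others, was high in the same libraries. Foxk2 (20.89 and 19.6 against 15.51 to 17.96 FPKM) and Foxm1 (15.08 and 17.71 against 13.5 to 14.71 FPKM) were also highest there, by less. The median ratio of a gene to its geometric mean over the libraries was 1.003 and 1.004 in these replicate 1 libraries. The part of this library difference in the FOXO levels was not tested. In FOXO1-GFP KO the order of residual Foxo1 was the same without and with PI3Kdi, with replicate 1 lowest and replicate 3 highest.

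Genes whose pattern over the 12 libraries was most like that of each paralogue were taken by the Pearson correlation of log2(FPKM + 0.1), as a description over libraries that include the same cultures with and without PI3Kdi. Those of Foxo1 were Ifi203 (r = 0.96), Ehd3 (0.96) and Ighm (0.95), the B cell marker named above. Ighm stood at 8.67 ± 1.46 FPKM in WT and 2.83 ± 0.761 FPKM in FOXO1-GFP KO (SD, n = 3), and its part in the Foxo1 difference was not tested. Those of Foxo3 were Ets1 (0.96), a T cell transcription factor, Zfp451 (0.96) and Zcchc2 (0.95). Those of Foxo4 were Lbh (0.93), Trip4 (0.92) and Helz2 (0.91), so the 3 paralogues had no gene in common in these lists.

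None of the 11 other forkhead genes measured was called in any comparison without the block, where 0 to 1.45% of all genes were called. Their median log2 change between genotypes was -0.03 without and -0.08 with PI3Kdi (-0.01 and 0.01 over all genes). The most abundant were Foxk1, Foxk2 and Foxm1, with means over all libraries of 17.9, 17.6 and 14.1 FPKM. Foxk1 and Foxk2 encode FOXK factors, and Foxm1 encodes a factor of cell division. Each of the 3 was thus at a higher level than WT Foxo1. Foxk1 differed by 0.01 and -0.14 between genotypes without and with PI3Kdi, Foxk2 by -0.03 and -0.07, and Foxm1 by -0.10 and -0.20 on the log2 scale, with all 6 intervals including 0. Foxj1, at 0.213 FPKM or less in every group mean, was called with PI3Kdi in WT only under the replicate block (limma adjusted p = 0.00838). The block called 2.57% of all genes there.

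The machinery that acts on FOXO proteins was measured with lists of genes. Over the 5 comparisons 0 to 1.45% of all genes were called without the replicate block and 0.0226% to 2.79% with it. Counts of 0 in lists this short are near those shares and are no result about the lists. Of 22 kinases that phosphorylate FOXO in the table, 0 were called in any of the 5 comparisons without or with the block. Their median log2 change was -0.10 between genotypes without PI3Kdi and -0.14 with it (-0.01 and 0.01 over all genes). Akt1, the most abundant at 84.2 FPKM over all libraries, differed by 0.05 and -0.05 between genotypes. For the 9 genes of 14-3-3 proteins and nuclear export, led by Ywhae (229 FPKM) and Ran (218 FPKM), 0 were called and the medians were 0.03 and -0.04. For 16 genes that acetylate, methylate or ubiquitinate FOXO, led by Trim28 (75.2 FPKM) and Prmt1 (65 FPKM), 0 were called and the medians were 0.01 and -0.02. Of 12 phosphatases and brakes on PI3K, led by Ppp2cb (85.7 FPKM) and Ppp2r1a (79.7 FPKM), 0 were called, with medians of -0.10 and -0.14.

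The replicate block called 2 of those 12 as higher with PI3Kdi in WT (2.57% of all genes). Phlpp1, which encodes a phosphatase of AKT, was at 1.08 ± 0.218 FPKM in WT and 2.04 ± 0.393 FPKM in WT+PI3Kdi (log2 change 0.86, block adjusted p = 0.000276). Pik3ip1, which encodes an inhibitor of PI3K, was at 2.09 ± 0.168 and 3.32 ± 0.891 FPKM (0.61, block adjusted p = 0.0152). Without replicate 1 or 3 of WT or of WT+PI3Kdi the block called 1 of the 12.

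Genes that FOXO factors are known to regulate were read in a pair of lists. The T cell list held 13 genes in the table, several of which the study itself shows for these libraries, so it is not independent evidence of a direction. Between genotypes without PI3Kdi 1 of 13 was called (0.331% of all genes), Ctla4, which encodes an inhibitory receptor and stood at 15.86, 15.15 and 9.05 FPKM in WT against 5.53, 3.76 and 4.6 FPKM in FOXO1-GFP KO. The groups were apart and the log2 change was -1.48 (limma adjusted p = 0.0193, and 0.116 with the replicate block). That call was lost without WT replicate 1 or 2 or any 1 of the FOXO1-GFP KO libraries, with an adjusted p of up to 0.105. With PI3Kdi 2 of 13 were called (1.45% of all genes). Ctla4 was at 26.4 ± 5.79 FPKM in WT+PI3Kdi and 7.74 ± 0.938 FPKM in FOXO1-GFP KO+PI3Kdi (-1.74, adjusted p = 0.00295). Tcf7, which encodes the memory factor TCF-1, was at 10.4 ± 4.18 and 2.42 ± 0.419 FPKM (-1.99, adjusted p = 0.00905). The list medians were -0.40 without and -0.58 with PI3Kdi, against -0.01 and 0.01 over all genes. Eomes and Ccr7, the most abundant of the list, were not called, at 84.6 ± 4.36 against 101 ± 8.24 FPKM and 18.7 ± 2.83 against 21.3 ± 9.02 FPKM without PI3Kdi.

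Under PI3Kdi the calls among T cell targets depended on the comparison of partners. Without the block 0 of 13 were called in either genotype (0.0979% and 0.0452% of all genes). With the replicate block 8 of 13 rose in WT and 6 of 13 in FOXO1-GFP KO, where the block called 2.57% and 2.79% of all genes. S1pr1, an exit receptor for lymphocytes, was at 1.95, 1.57 and 2.17 FPKM in WT and 6.96, 4.4 and 5.79 FPKM in WT+PI3Kdi (log2 change 1.53, block adjusted p = 0.000133). Tcf7 was at 3.45 ± 1.32 and 10.4 ± 4.18 FPKM (1.56, block adjusted p = 0.000175). In FOXO1-GFP KO, Id3 rose from 2.66 ± 0.488 to 4.56 ± 0.446 FPKM (0.77, block adjusted p = 0.000704), Tcf7 from 0.97 ± 0.139 to 2.42 ± 0.419 FPKM (1.23, block adjusted p = 0.00108) and Il7r, the IL-7 receptor chain, from 5.06 ± 1.7 to 10.1 ± 3.87 FPKM (0.97, block adjusted p = 0.00185). The medians were 0.71 in WT and 0.50 in FOXO1-GFP KO, against -0.04 and -0.02 over all genes. The difference of the responses was called for 0 of 13 with or without the block. Over all genes it was called for 0% without and 0.0226% with the block, so this count is no result about the list. Leaving out 1 library with the block gave 7 to 8 calls in WT and 4 to 6 in FOXO1-GFP KO, with 4 calls without FOXO1-GFP KO replicate 2.

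**Figure D4:**
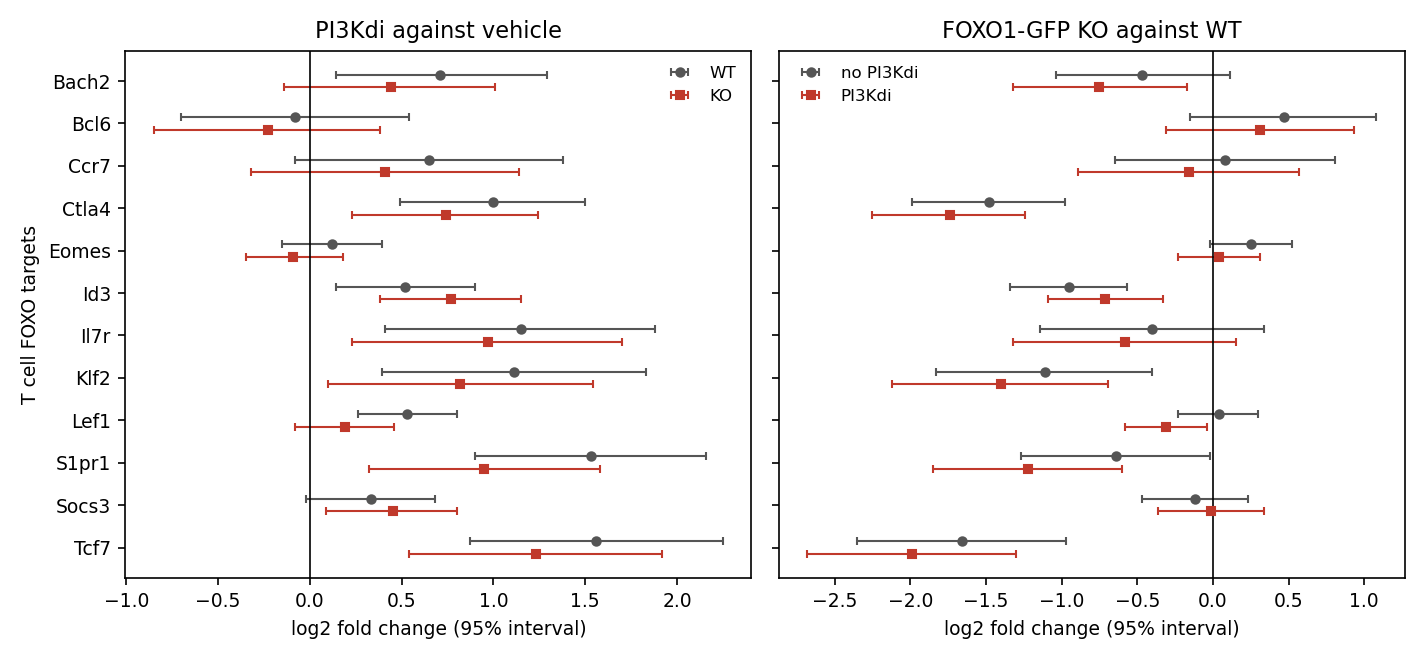
Log2 fold changes of FPKM + 0.1 with 95% limma intervals (no replicate block) for 12 of the 13 T cell FOXO targets, with PI3Kdi against vehicle in each genotype on the left and FOXO1-GFP KO (KO) against WT under each condition on the right. Tcf7 and Ctla4 lie at -1.99 and -1.74 between genotypes with PI3Kdi, and Tcf7 at 1.56 in WT and 1.23 in FOXO1-GFP KO for PI3Kdi.

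Of 31 general FOXO targets in the table, 1 was called between genotypes without PI3Kdi (0.331% of all genes) and 3 with it (1.45%), and the medians were -0.14 and -0.11, against -0.01 and 0.01 over all genes. Bnip3, a mitophagy gene, was at 129 ± 18 FPKM in WT and 65.6 ± 4.5 FPKM in FOXO1-GFP KO (log2 change -0.97, limma adjusted p = 0.0239), and it differed by -0.83 with PI3Kdi (adjusted p = 0.0208). Sesn1, a stress response gene, was at 10.2 ± 1.47 FPKM in WT+PI3Kdi and 5.99 ± 0.745 FPKM in FOXO1-GFP KO+PI3Kdi (-0.76, adjusted p = 0.0352). Fasl, which encodes the death ligand FASL, was the 1 gene called higher in FOXO1-GFP KO, at 33.6 ± 2.07 and 52.2 ± 6.34 FPKM with PI3Kdi (0.63, adjusted p = 0.0435). These calls depended on single libraries. Bnip3 was not called without PI3Kdi when any FOXO1-GFP KO library or WT replicate 1 or 2 was left out (limma adjusted p up to 0.121), nor with PI3Kdi when WT+PI3Kdi replicate 2 or FOXO1-GFP KO+PI3Kdi replicate 2 or 3 was left out (up to 0.0937). Sesn1 was not called without replicate 1 or 3 of WT+PI3Kdi or of FOXO1-GFP KO+PI3Kdi, WT replicate 3 or FOXO1-GFP KO replicate 1 (up to 0.137). Fasl kept its call in 2 of 12 such fits, those without FOXO1-GFP KO replicate 1 or 3 (up to 0.169 in the others). Txnip and Ddit4, the most abundant, were not called. With the block, which called 2.57% of all genes there, PI3Kdi in WT raised 4 and lowered 1 of the 31. Bcl2l11, the death gene for BIM, went from 6.25 ± 1.04 to 11.6 ± 2.84 FPKM (0.87, block adjusted p = 0.000352). Irs2 went from 0.253 ± 0.153 to 0.82 ± 0.226 FPKM (1.44, block adjusted p = 0.00334). Cdkn1b, the gene for the cell cycle inhibitor p27, went from 6.35 ± 0.488 to 9.72 ± 1.78 FPKM (0.59, block adjusted p = 0.00937). In FOXO1-GFP KO the block called 1 of the 31, which is near the 2.79% of all genes it called there. This was Irs2 (1.42, block adjusted p = 0.00455), at 0.23 ± 0.0781 and 0.77 ± 0.111 FPKM. Without WT replicate 1 or WT+PI3Kdi replicate 1 the block called 2 of the 31 in WT.

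The genes around each paralogue were read to see whether differences reached beyond it. Within 1 Mb there were 14 genes in the table around Foxo1, 19 around Foxo3 and 22 around Foxo4, 55 in all. Between genotypes 1 of the 55 was called without PI3Kdi (0.331% of all genes) and 3 with it (1.45%). Next to Foxo1, 163 kb on its lower-coordinate side, Maml3, a Notch coactivator gene, differed by -0.90 without and -1.02 with PI3Kdi and was not called. On the other side, 72.2 kb away, the processed pseudogene Gm38098 (chr3:52425408-52425648, plus strand) was at 0, 0.17 and 0.3 FPKM in WT and at 9.77, 7.98 and 20 FPKM in FOXO1-GFP KO. With PI3Kdi it was at 0, 0.27 and 0 FPKM in WT and at 14.23, 11.21 and 26.8 FPKM in FOXO1-GFP KO. All FOXO1-GFP KO libraries were above all WT libraries, with an estimated 53 to 114 reads against 0 to 2, and the difference was called without (limma adjusted p = 0.00436) and with PI3Kdi (adjusted p = 0.000831). The call without PI3Kdi was lost at a pseudocount of 0.01 FPKM and with only the 2 groups compared. Which transcript the reads of this processed pseudogene of 241 bases came from cannot be settled from values of whole genes and was not tested.

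Around Foxo3, the nearest genes Tdg-ps2 (127 kb) and Afg1l (35.8 kb) were not called, and Sesn1, given above, lay 273 kb away. Around Foxo4, the nearest genes Snx12 (32 kb) and Gm614 (0.503 kb) were not called. Cxcr3, which encodes a chemokine receptor and lies 471 kb from Foxo4, was called with PI3Kdi (log2 change -1.06, limma adjusted p = 0.000831) and not without (-0.49, adjusted p = 0.0872). All other neighbours of Foxo3 and Foxo4 differed by between -0.87 and 0.83 on the log2 scale and were not called.

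**Figure D5:**
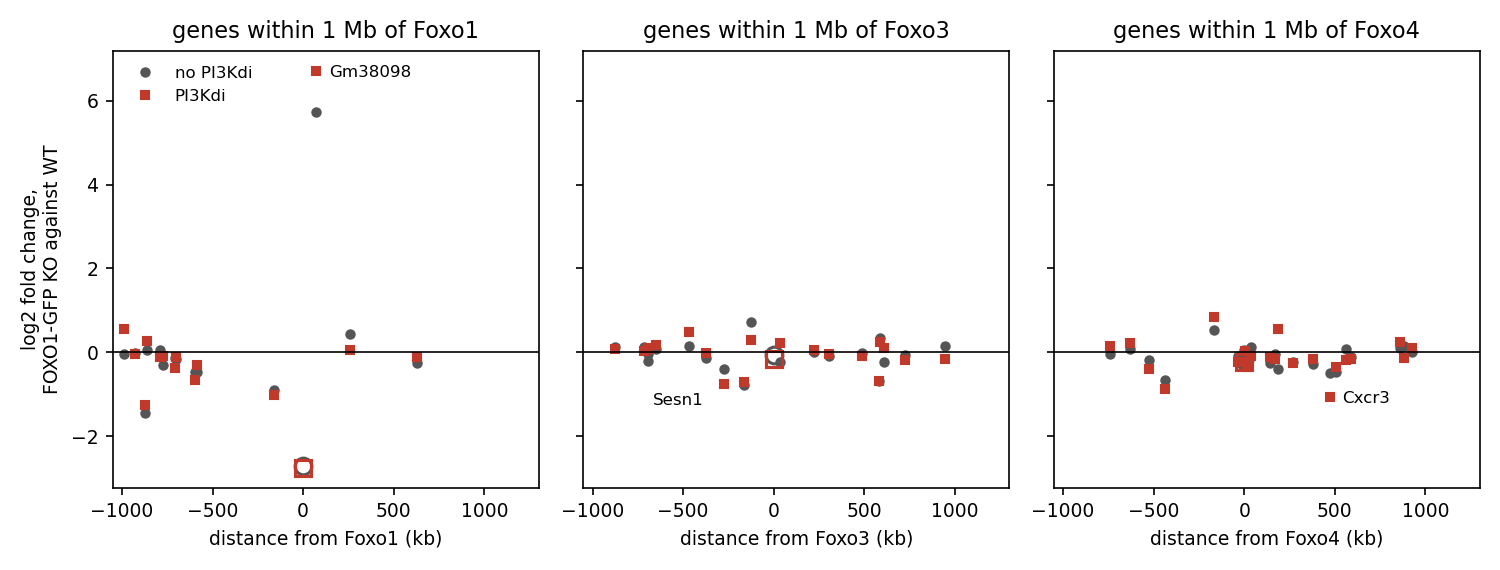
Log2 fold change of FPKM + 0.1, FOXO1-GFP KO against WT, for genes of the table within 1 Mb of each paralogue, against their distance from it (kb, negative towards lower coordinates); circles are without and squares with PI3Kdi, and large open symbols at 0 kb are the paralogue itself. Names mark genes called with PI3Kdi: Gm38098 rose, Sesn1 (-0.76) and Cxcr3 (-1.06) fell, and Foxo1 lies at -2.71 and -2.76.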

How the data were processed

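Per the submitters' processing notes and the study's methods, the authors aligned 75-base paired reads from stranded mRNA libraries (300 ng RNA) with STAR 2.7.1a to GRCm38.p6, counted genes of Ensembl 98, removed genes with low counts, scaled by TMM and deposited FPKM from edgeR, divided by exon length. The labels call replicates biological. Which mouse gave which is not given in the sources used here, so p-values weigh differences against the spread between these samples. The main fit took the 12 libraries as independent. The 3 genes and all lists were chosen with earlier results of these data known. limma 3.58.1 (R 4.3.3) was fitted to log2(FPKM + 0.1) of 13283 genes over 12 libraries with 4 group means and a mean-variance trend, with Benjamini-Hochberg adjustment over all genes, after tests on simulated data. Fold changes on this scale understate changes of low genes. Same-numbered libraries within a genotype correlated at 0.594 to 0.838 in their deviations from group means, so the numbers were taken to pair them, and a replicate block within genotype (random effect, consensus correlation 0.757) was the alternative. Depth was recovered from genes of at most 400 bases; in genes of at most 800 bases held out, 94.6 to 99.1% of values gave whole reads, against 11.5 to 32.1% by chance. Sums were compared by exact permutation. Named genes were those called, up to 3 per list and comparison called with the block, the 2 most abundant per list, the 3 most alike each paralogue and the nearest or called neighbours. Of the T cell targets 1 gene that the counts include is not reported here. Values and calls were recomputed under other pseudocounts, filters, scalings and fits and without each library.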

Additional observations from a re-analysis of the deposited data

How the results depend on the processing

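Foxo3 and Foxo4 were not called between genotypes, under PI3Kdi or in the difference of the responses in any of the alternatives tried. Leaving out 1 library turned small uncalled values. For PI3Kdi in WT the ranges were -0.07 to 0.41 (Foxo1), -0.09 to 0.29 (Foxo3) and -0.17 to 0.01 (Foxo4). For PI3Kdi in FOXO1-GFP KO they were -0.24 to 0.45 for Foxo1 and -0.09 to 0.13 for Foxo3, which was -0.00 with voom on estimated reads. Between genotypes Foxo3 ranged from -0.18 to 0.11 without and from -0.27 to 0.04 with PI3Kdi. The difference of the responses ranged from -0.39 to 0.30 (Foxo1), -0.27 to 0.11 (Foxo3) and -0.15 to 0.03 (Foxo4). Foxo1 between genotypes without PI3Kdi was -2.71 with only the 2 groups compared, where its call was lost (adjusted p = 0.0898), and -2.97 to -2.38 without 1 library. The difference of the Foxo3 and Foxo4 sum ranged from -1.01 to 0.0583 FPKM without and from -1.33 to -0.245 FPKM with PI3Kdi. The replicate block changed no call of a paralogue.

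Counts over all genes moved more. For the PI3Kdi response of WT, that of FOXO1-GFP KO, the genotypes without PI3Kdi and the genotypes with it, 13, 6, 44 and 193 genes were called. The replicate block within genotype gave 342, 370, 31 and 157, and 3 genes for the difference of the responses, against 0. A replicate block shared by all groups gave 99, 42, 178 and 440, but same-numbered libraries of different genotypes correlated at -0.499 to 0.730, so only the block within genotype was read. Voom on estimated reads gave 22 for PI3Kdi in WT, and voom with the replicate block 356, 450 and, for the difference, 6. Only the 2 groups compared gave 0, 0, 0 and 94, and a mean of at least 1 FPKM gave 111 for genotype with PI3Kdi. Without 1 library the ranges were 1 to 10, 0 to 4, 8 to 41 and 111 to 196. The causes were not tested. Leaving out libraries for the gene lists with the replicate block and for the share of the Foxo1 loss was chosen after seeing the data.

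With 3 libraries a group, the intervals between genotypes span -0.62 to 0.40 on the log2 scale for Foxo3 and -0.52 to 0.10 for Foxo4. True changes within these ranges are compatible with the values. The intervals are not limits of detection, because a call needed an adjusted p under 0.05 and a change over 1.5-fold. FPKM gives mRNA per length and not the protein or its place in the cell.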
